A study of Mus musculus with 8 samples.

Results

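The albumin gene cluster was described here from lists of open chromatin in mouse hepatocytes. Its 4 members are Alb, Afp and Afm, which lie head to tail on the plus strand of chromosome 5, and Gc, which lies nearer the centromere on the minus strand of the same chromosome. On mm10 with the GENCODE annotation, Alb spans chr5:90460897-90476602, Afp chr5:90490737-90508907, Afm chr5:90518932-90553543 and Gc chr5:89417522-89457898. Open intervals were taken from 20 kb before Alb to 20 kb past Afm, and from Gc with 20 kb on each side. Overlapping intervals of the 8 libraries were merged into 82 regions out of 315767 in the genome, 47 of them around Alb, Afp and Afm and 35 around Gc. Of the 82 regions, 67 were listed in at least 2 libraries, 26 were listed in all 8, and 15 were listed in 1 library. A region lying within 1 kb of an annotated transcription start was called a promoter, which held for 4 regions at members and 3 at other transcripts, and the other 75 were called distal.

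The assay was bulk ATAC-Seq, which reads where Tn5 transposase cuts exposed DNA, on nuclei of hepatocytes released by collagenase perfusion. The mice were of strain C57BL/6, given as 10 to 12 weeks old in the labels, and on a normal diet. The study's methods give the mice as male C57BL/6J and their age at PHx as slightly younger. The groups were undamaged liver (0 h) and liver taken 48, 72 or 96 h after PHx (partial hepatectomy), the surgical removal of most of the liver mass, with 2 libraries each. Nothing in the labels says whether an operated control was included, so surgery and regeneration cannot be told apart. The study's text describes biological replicates from separate mice at 0 and 48 h, more than were analysed here, but the labels do not say which animal each library came from, so p-values cover the spread between these libraries only. All 3 time points were compared with the same 2 libraries at 0 h. In bulk nuclei, fewer cells with an open site and a less open site in each cell cannot be told apart.

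The lists held 105206 to 154577 distinct intervals per library. Tag counts recovered from the lists put the depth of the shallowest library, 0 h replicate 2, at 0.544 of that of the deepest, 0 h replicate 1. The library of 96 h replicate 1 stood apart, with a density of 194 times the genome mean at Wars, a tryptophan tRNA ligase gene, against 2.66 to 14.1 in the other 7. Its excess was smaller at genes dense in every library. At Slc25a47, on the same chromosome, it was 218 against 36.1 to 109, and at Osgin1 144 against 34.0 to 79.2. With 1 library setting the group the rule is looser, and 18 cluster regions ranked lower and 17 higher at 96 h without replicate 1, and 22 and 20 without replicate 2, in place of 10 and 4. Of all regions, 27.0% and 29.3% did so without replicate 1, and 23.9% and 35.2% without replicate 2. All 8 hepatocyte marker promoters were listed in at least 6 libraries, whereas 4 of 6 Kupffer cell markers (Cd5l, Csf1r, Marco and Vsig4) were listed in no library. Stab2 and Lyve1 of the 6 endothelial markers, Acta2 of the 6 stellate cell markers and Krt19 of the 6 cholangiocyte markers were also unlisted. Other markers of these types were listed in all 8 libraries, namely Lrat, Reln and Col1a1 (stellate cell), Epcam and Sox9 (cholangiocyte) and Kdr (endothelial), with Reln up to percentile 98.5 and Epcam up to 97.9 of a list, while Tat, Ttr and Fgb of the hepatocyte markers were missing from 2, 1 and 1 libraries.

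Albumin is the main protein of plasma and carries fatty acids, hormones and drugs. Alpha-fetoprotein takes that place in the fetus, and its gene Afp is repressed in liver after birth and can be expressed again in regenerating and malignant liver. Afamin binds vitamin E, and the product of Gc binds vitamin D and free actin. The genes descend from one ancestor by duplication, and in hepatocytes they are driven by a shared set of liver factors, among them HNF1, HNF4, FOXA and C/EBP proteins.

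The promoters were read first, because every member carries the same site close to its start. RefSeq promoter windows (GRCm38.p6, the same build as mm10), running from 250 bases before the start to 50 bases past it, were searched on both strands for GTTAATNAT, the core of an HNF1 site. All 4 members held it, against 0.801% of 32851 promoters in the genome. Each promoter is printed below 5′ to 3′ in the direction of its gene, with this match in capitals.
Alb, chr5:90460620-90460869 (+ strand): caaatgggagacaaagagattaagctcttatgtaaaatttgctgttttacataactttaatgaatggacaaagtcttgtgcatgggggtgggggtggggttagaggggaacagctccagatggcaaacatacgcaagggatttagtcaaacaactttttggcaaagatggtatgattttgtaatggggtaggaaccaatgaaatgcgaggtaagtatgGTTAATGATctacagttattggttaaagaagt
Afp, chr5:90490464-90490713 (+ strand): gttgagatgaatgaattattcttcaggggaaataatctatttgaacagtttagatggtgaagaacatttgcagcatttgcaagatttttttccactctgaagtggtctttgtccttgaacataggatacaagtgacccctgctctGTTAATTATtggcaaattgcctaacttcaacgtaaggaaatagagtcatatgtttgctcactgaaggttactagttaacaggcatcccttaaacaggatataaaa
Afm, chr5:90518699-90518948 (+ strand): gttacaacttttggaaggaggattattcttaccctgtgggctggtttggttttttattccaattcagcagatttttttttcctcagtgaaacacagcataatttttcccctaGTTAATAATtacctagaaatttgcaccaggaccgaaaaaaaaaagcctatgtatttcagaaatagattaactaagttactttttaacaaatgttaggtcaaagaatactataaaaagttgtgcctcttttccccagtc
Gc, chr5:89457899-89458148 (- strand): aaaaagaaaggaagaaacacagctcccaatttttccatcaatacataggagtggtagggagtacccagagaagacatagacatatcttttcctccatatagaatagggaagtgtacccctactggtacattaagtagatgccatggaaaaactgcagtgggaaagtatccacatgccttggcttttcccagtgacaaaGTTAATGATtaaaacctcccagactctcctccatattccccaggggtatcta

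The match began 32 bases before the RefSeq start of Alb, 105 before that of Afp, 138 before that of Afm and 52 before that of Gc. For Alb, Afp and Afm the RefSeq start differs from the GENCODE start given in the opening. All other distances in this report were taken from GENCODE starts. Alb and Afp also held matches to FOXA (TGTTTAC, or its variants TGTTTGC and also TATTTAC, found in 11.2% of promoters), C/EBP (TTGCNNAA, 10.8%) and an NFI element (TTGGCA, 14.1%). In Alb the C/EBP and NFI matches overlap and so are not independent. Afm and Gc held none of these 3. The letters searched for HNF4 (CAAAGTCCA, 0.475%), AP-1 (TGANTCA, 7.81%) and CTCF (CCACNAGG, 4.99%) were found in 0 of the 4 member promoters, which says only that these letters are not in this window. A match is a run of letters and does not show that a factor was bound.

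The 4 matches differed in how often an open interval covered them. At Gc the HNF1 match lay inside an interval in 8 of 8 libraries. At Afm it was covered in 7 of 8, all but 96 h replicate 2. At Alb it was covered in 2 of 8, which were the 2 libraries at 0 h, while the interval of 96 h replicate 1 began at the base just past the match. At Afp it was covered in 0 of 8.

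**Figure D1:**
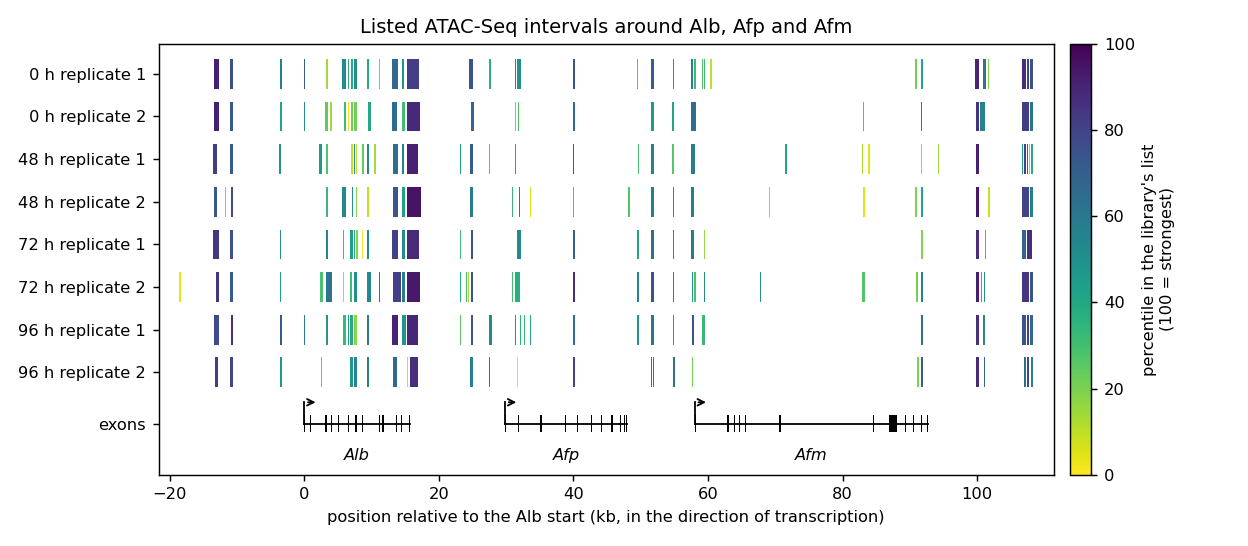
Open intervals of the 8 libraries around Alb, Afp and Afm, with the distance from the Alb start in kb on the x axis, 1 row per library, colour giving the percentile of the interval within its list, and gene models with exons below. Intervals 13.1 and 10.7 kb before Alb and at its 3′ end recurred in all 8 libraries, and no interval covered the Afp start.

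Alb, the most highly transcribed gene of the set in adult liver, had an open interval at its start in 3 of the 8 libraries. Intervals were ranked within each list by the peak caller's p-value, so that rank 1 is the strongest. The region at the Alb promoter (chr5:90460810-90461057, reaching into the first coding exon) ranked 35178 and 52573 in the 2 libraries at 0 h. It ranked 59786 in 96 h replicate 1 and was listed in no other library after PHx. By rank all 6 PHx libraries therefore lay below both 0 h libraries, a pattern shared by 4.8% of the 149843 regions listed in at least 2 libraries. By percentile within the list the value of 58.7 in 96 h replicate 1 lay between those of 72.3 and 50.03 at 0 h, so on that scale the promoter was apart from 0 h at 48 and 72 h only.

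The fold enrichment of that promoter, which is the signal over the background around it, was 3.97 and 2.82 at 0 h and 2.88 at 96 h. The tags stacked at its summit numbered 79 and 43 at 0 h and 51 at 96 h. Divided by each library's genome-wide background these were 31.4, 31.4 and 23.8. The surrounding 10 kb already held 7.61, 10.7 and 7.97 times the genome mean in these 3 libraries, and an interval is listed only where it exceeds that surrounding level. Scored as the percentile within the list, with 0 where it was not listed, the promoter averaged 61.1 at 0 h and 9.78 after PHx. The difference of -51.4 gave p = 0.143 in an exact two-sided permutation test of 2 against 6 libraries, in which the smallest p possible is 0.0714. Without 96 h replicate 1 the difference was -61.1, and with intervals ranked by fold enrichment it was -22.2 (p = 0.143 in the same exact test).

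At its highest point, the Alb body stood above nearly all other genes in this surrounding level. The highest 10 kb density in the gene body was 33.2 and 40.4 times the genome mean at 0 h, then 32.1 and 36.9 at 48 h, then 34.8 and 42.2 at 72 h, and finally 46.3 and 17.1 at 96 h. The mean of 35.4 ranked 11th of 21911 protein-coding genes. The groups overlapped at every time point, and the 2 libraries at 96 h lay further apart than the means of any 2 time points. For comparison, the median gene with an interval lay between 1.99 and 2.79 and the 99th percentile between 8.403 and 15.5, depending on the library.

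**Figure D2:**
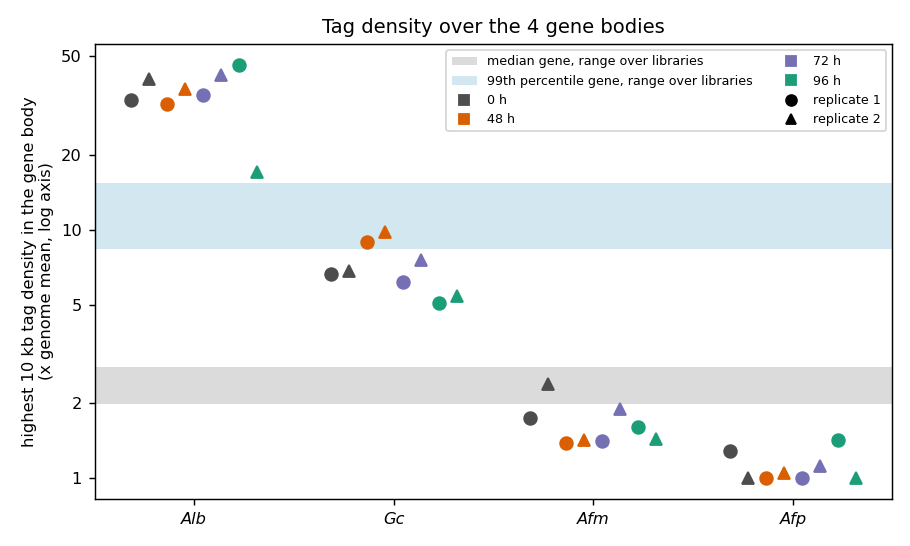
Highest 10 kb tag density in the body of each member, as multiples of the library's genome-wide background on a log axis, with 1 point per library by time point. The grey band gives the range of the median gene over libraries and the blue band that of the 99th percentile; Alb lay at 17.1 or more in all 8 libraries, whereas Afp stayed between 1 and 1.43.

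Upstream of Alb, where its liver enhancer lies, 2 intergenic regions were listed in all 8 libraries. Both are printed around the summit of their strongest interval, on the plus strand, because they are the upstream regions that recurred in every library. Capitals mark matches to the searched motifs, which are TGTTTGC (FOXA) in both and, in the first region, also TGAGTCA (an AP-1 site, searched as TGANTCA) and the reverse complement of CCACNAGG (the core of a CTCF site).
13.1 kb before Alb, chr5:90447689-90447888 (+ strand): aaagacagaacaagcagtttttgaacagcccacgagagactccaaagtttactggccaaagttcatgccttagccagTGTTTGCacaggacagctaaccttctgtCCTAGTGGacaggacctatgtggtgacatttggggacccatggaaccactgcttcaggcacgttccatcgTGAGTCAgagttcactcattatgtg
10.7 kb before Alb, chr5:90450051-90450250 (+ strand): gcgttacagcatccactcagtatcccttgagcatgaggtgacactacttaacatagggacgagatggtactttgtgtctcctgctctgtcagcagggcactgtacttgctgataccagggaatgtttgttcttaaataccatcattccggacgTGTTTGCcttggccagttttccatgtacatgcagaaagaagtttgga

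The region 13.1 kb before Alb (chr5:90447375-90448244) had the best rank at 0 h in the Alb, Afp and Afm window. It ranked 10956 and 9339 at 0 h, then 20915 and 38466 at 48 h, then 22918 and 23173 at 72 h, and finally 32633 and 23754 at 96 h. All 6 PHx libraries ranked below both 0 h libraries, as in 4.8% of regions. Its scaled summit, the tags at the summit over the genome-wide background, was 32.2 and 43.8 at 0 h, then 15.4 and 12.5 at 48 h, then 20.05 and 19.39 at 72 h, and finally 17.3 and 17.3 at 96 h. The PHx libraries did not overlap those at 0 h on this scale either, a pattern shared by 10.2% of regions.

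In limma, fitted over the 57473 regions listed in all 8 libraries, the log2 fold enrichment of this region was lower by 0.55 on the log2 scale at 48 h (difference -0.55, SE 0.27, adjusted p = 0.515). At 72 h the difference was -0.40 (adjusted p = 0.883) and at 96 h -0.48 (adjusted p = 0.910). Fitted in limma to the scaled summit tags after quantile normalisation, the difference at 48 h was -0.83 (SE 0.32, 95% interval -1.47 to -0.18, adjusted p = 0.288). This is smaller than the fall in the scaled summits printed above. The values therefore separated the groups but did not pass the adjusted threshold of 0.05 in either fit.

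The neighbouring region 10.7 kb before Alb (chr5:90449828-90450349) did not follow it at the latest time. It ranked 30238 and 29245 at 0 h, then 33528 and 32954 at 48 h, then 34064 and 43751 at 72 h, and finally 19956 and 27400 at 96 h. It thus lay below both 0 h libraries at 48 and 72 h and above both at 96 h. On the scaled summit the 96 h libraries, at 22.9 and 15.9, overlapped those at 0 h, at 19.5 and 24.1, so the higher rank at 96 h was not seen in tags. In limma its log2 fold enrichment differed by 0.41 at 96 h (SE 0.29, adjusted p = 0.945).

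Inside Alb, past its promoter, regions carried many tags but little enrichment over their surroundings. The region in the intron near the end of the gene (chr5:90473958-90475277) had scaled summits of 70.8 and 91.3 at 0 h, then 61.2 and 74.3 at 48 h, then 85.0 and 91.8 at 72 h, and finally 128 and 42.9 at 96 h. Its fold enrichment was between 1.90 and 2.75 in all 8 libraries. By rank it was higher at 72 h, at 26752 and 29610 against 43088 and 36468 at 0 h.

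The region at the 3′ end of Alb (chr5:90476095-90478158), 2064 bp wide with its summit past the gene, had the highest mean percentile of the distal regions in either window, 89.3. It ranked 22943 and 12236 at 0 h and 10708 and 6762 at 48 h, which put both 48 h libraries above both 0 h libraries. Its scaled summits of 73.6 and 111 at 0 h and 70.5 and 95.6 at 48 h overlapped. In limma on quantile-normalised summit tags the difference at 48 h was 0.60 (SE 0.23, adjusted p = 0.285). The direction thus depended on whether tags were read against the list or against the genome-wide background.

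**Figure D3:**
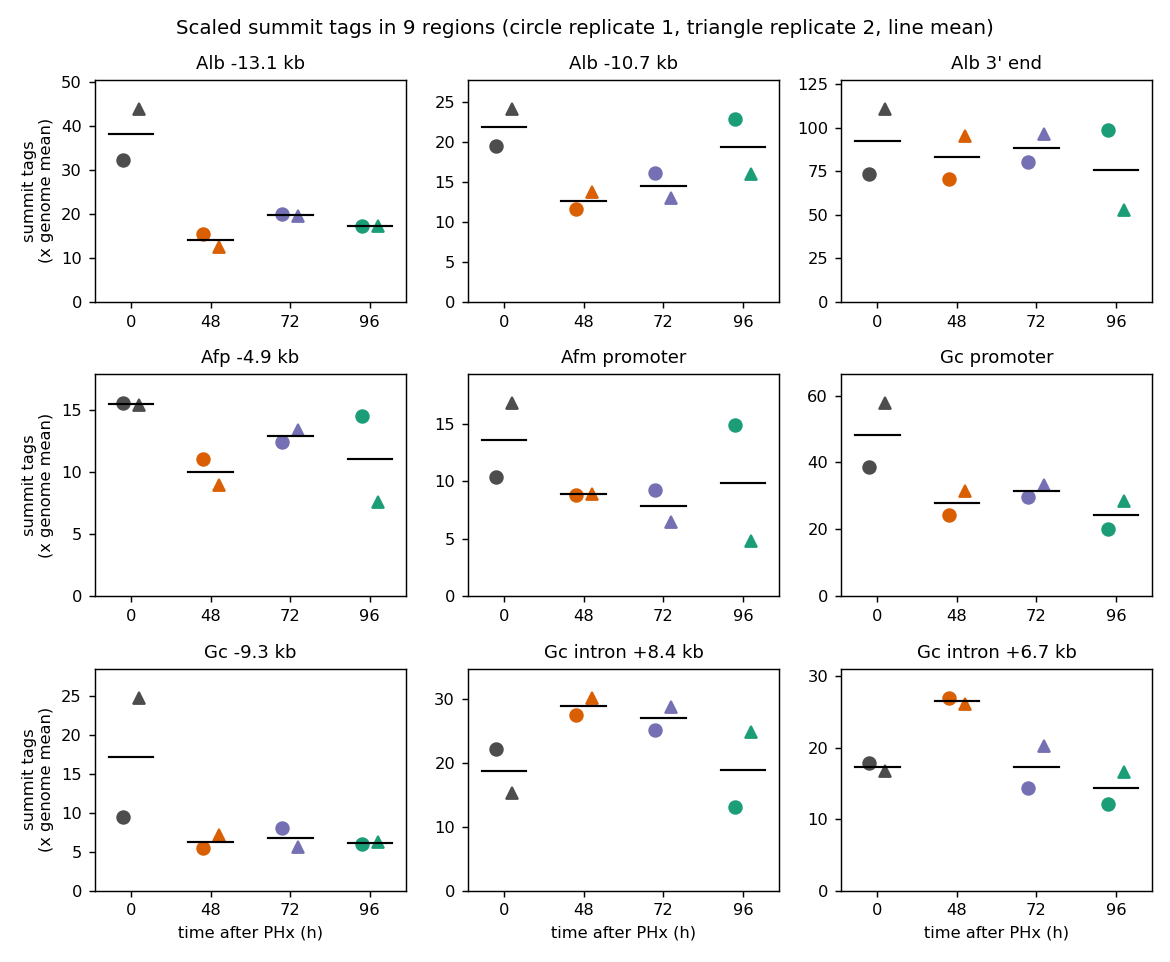
Scaled summit tags (tags at the summit over the library's genome-wide background) of 9 regions of the cluster, with 1 point per library at 0, 48, 72 and 96 h. The region 13.1 kb before Alb and the region 9.3 kb before Gc lay lower in all 6 PHx libraries than in both 0 h libraries, and 2 introns of Gc lay higher in both 48 h libraries.

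At Afp no library listed an open interval over the start. Between the region 2.3 kb before the start and a region past it, no interval was listed in any of the 8 libraries. The latter, in the first part of the gene (chr5:90491692-90491846), counted as the Afp promoter under the limit of 1 kb, with its summit 1028 bp past the start. It was listed in 48 h replicate 2 at rank 93524 with 8 tags and in 72 h replicate 2 at rank 107878 with 10 tags. The mean percentile was 0 at 0 h and 10.5 after PHx, with p = 1 in the exact two-sided permutation test, but the difference was -6.67 with a promoter limit of 2 kb and 0 with 500 bp. The highest 10 kb density in the Afp body was between 1 and 1.43 times the genome mean in all 8 libraries, and its mean ranked 14300th of 21911 genes.

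Open regions were found around Afp, away from its start. A region listed in all 8 libraries lay 4.9 kb before the start (chr5:90485190-90486042), in the stretch between Alb and Afp that holds the fetal enhancers of Afp. It is printed on the plus strand with matches to C/EBP (TTGAGCAA, the opposite strand of TTGCNNAA) and FOXA (TGTTTGC) in capitals.
4.9 kb before Afp, chr5:90485726-90485925 (+ strand): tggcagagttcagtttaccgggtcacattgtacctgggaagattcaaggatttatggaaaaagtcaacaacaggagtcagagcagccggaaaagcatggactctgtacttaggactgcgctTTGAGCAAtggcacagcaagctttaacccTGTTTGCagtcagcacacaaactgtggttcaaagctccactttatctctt

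This region ranked 32451 and 34951 at 0 h, then 34948 and 57449 at 48 h, then 35932 and 38723 at 72 h, and finally 37342 and 55310 at 96 h. Its scaled summit was 15.5 and 15.3 at 0 h, then 11.02 and 8.91 at 48 h, then 12.4 and 13.4 at 72 h, and finally 14.5 and 7.61 at 96 h. Every PHx library lay below both 0 h libraries in scaled summit, a pattern shared by 10.2% of regions, and by rank this held at 72 and 96 h but not at 48 h. By percentile the values at 72 h (74.39 and 74.95) and 96 h (74.2 and 56.6) overlapped those at 0 h (74.40 and 66.8). The lowest adjusted p of its fold enrichment in limma was 0.740.

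Weaker regions near Afp were mostly listed in some libraries only. The region nearest the start of those listed in all 8 lay in an intron (chr5:90492167-90493131), with its summit 1531 bp past the start. Its percentiles were 57.9 and 27.6 at 0 h, then 41.4 and 58.8 at 48 h, then 53.0 and 36.4 at 72 h, and finally 47.5 and 5.20 at 96 h, and by rank, percentile and scaled summit it overlapped 0 h at every time point. The one 6.6 kb before the start was listed in 4 libraries after PHx and in neither at 0 h, and ranked 96269 and 97457 at 72 h. The one 2.3 kb before the start ranked 69742 and 45245 at 96 h, above 80909 in 0 h replicate 1, and was unlisted in 0 h replicate 2. An intronic region 10.2 kb past the start was listed in all 8, with scaled summits of 13.1 and 13.9 at 0 h against a range of 4.16 to 16.8 after PHx. Where a region is not listed, this shows only that no interval was called at that library's depth.

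Afm had a moderately open promoter (chr5:90518327-90519125) that was listed in all 8 libraries. It ranked 55281 and 38112 at 0 h, then 48929 and 59422 at 48 h, then 57715 and 82373 at 72 h, and finally 37127 and 101238 at 96 h. Its scaled summit was 10.3 and 16.8 at 0 h, then 8.82 and 8.91 at 48 h, then 9.22 and 6.46 at 72 h, and finally 14.9 and 4.84 at 96 h. The 2 libraries at 96 h held its highest and its lowest rank. The mean percentile was 7.34 points lower after PHx (difference -7.34, p = 0.714, exact two-sided permutation test). Leaving out 96 h replicate 2 gave -0.92, and leaving out 96 h replicate 1 gave -11.7. When 0 h replicate 2 was dropped it was -3.65.

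The Afm body itself was near the genome mean, with a highest 10 kb density of 1.74 and 2.40 at 0 h, then 1.39 and 1.43 at 48 h, then 1.41 and 1.89 at 72 h, and finally 1.61 and 1.44 at 96 h. It lay below both 0 h libraries at 48 and 96 h, as did 61.5% and 36.7% of the 15209 gene bodies with an interval in every list. The region 6.2 kb before Afm was listed in all 8 libraries and by rank separated from 0 h at no time point, although its scaled summits at 48 h, 7.72 in both libraries, lay below those of 13.5 and 8.77 at 0 h. At the edge of the window, the promoter of the neighbouring 5830473C10Rik (chr5:90560652-90561191) ranked between 9146 and 19793 in all 8 libraries. A region in an intron of that gene (chr5:90567554-90569264) ranked 15938 and 19720 at 0 h and between 19136 and 27958 after PHx, and both libraries ranked below both 0 h libraries at 48 and at 96 h.

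**Figure D4:**
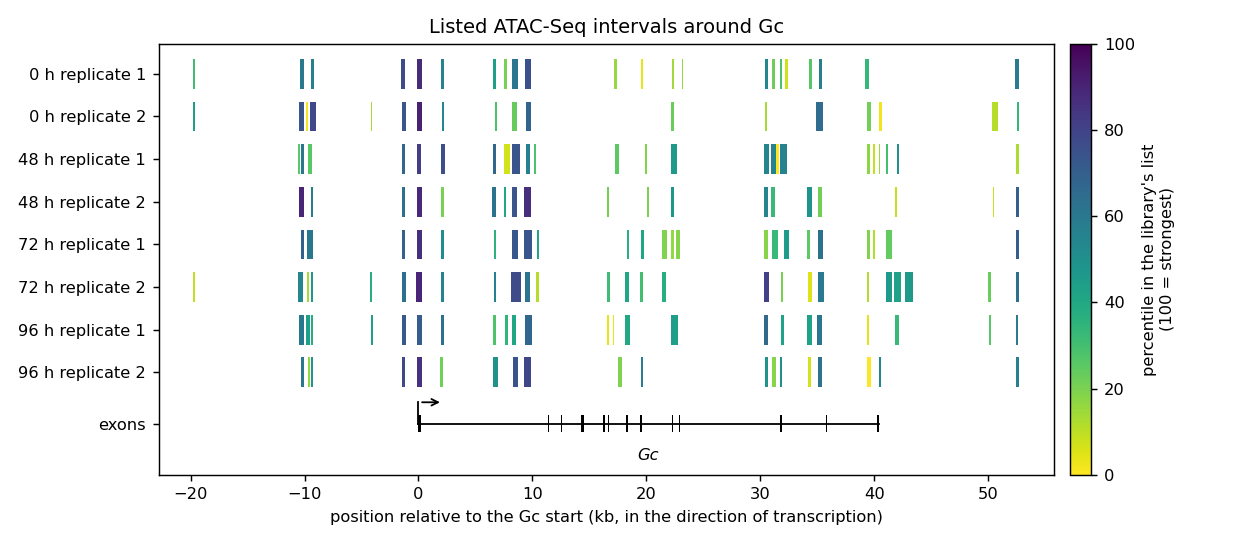
Open intervals of the 8 libraries around Gc, with the distance from the Gc start in kb in the direction of the gene on the x axis, 1 row per library, colour giving the percentile within the list, and exons below. The Gc promoter was listed in all 8 libraries, and the region at the far upstream edge was listed in both 0 h libraries and in 1 of 6 PHx libraries.

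Gc had the strongest promoter of the 4 members. Its promoter region (chr5:89457593-89458086) ranked 15819 and 9665 at 0 h, then 21602 and 15530 at 48 h, then 19490 and 16291 at 72 h, and finally 41899 and 18033 at 96 h. By rank both libraries lay below both 0 h libraries at 72 and 96 h but not at 48 h, whereas by percentile those at 72 h (86.1 and 89.5) overlapped those at 0 h (87.5 and 90.8). The scaled summit was 38.6 and 57.7 at 0 h, then 24.2 and 31.5 at 48 h, then 29.7 and 33.2 at 72 h, and finally 20.1 and 28.4 at 96 h. In tags every PHx library thus lay below both 0 h libraries, a pattern shared by 10.2% of regions. The mean percentile was 89.2 at 0 h and 83.8 after PHx (difference -5.33, p = 0.214, exact two-sided permutation test), and with intervals ranked by fold enrichment the difference was -1.88 (p = 1 in the same test). Without 96 h replicate 1 it was -2.77.

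Upstream of Gc, 2 further regions had lower scaled summits in all 6 PHx libraries than in both 0 h libraries, as did 10.2% of all regions. The region 1.3 kb before the start (chr5:89458950-89459391) had scaled summits of 28.2 and 35.1 at 0 h against 16.4 to 22.1 after PHx. The region 9.3 kb before the start (chr5:89466891-89467745) ranked 55327 and 22763 at 0 h, then 87126 and 59197 at 48 h, then 56246 and 82734 at 72 h, and finally 81829 and 68815 at 96 h. By percentile it did not separate, at 56.4 in 0 h replicate 1 against 57.5 in 48 h replicate 2 and 59.9 in 72 h replicate 1. Its scaled summits were 9.55 and 24.8 at 0 h against 5.51 to 8.02 after PHx. The differences in quantile-normalised summit tags from limma were -0.89, -1.02 and -1.14 at 48, 72 and 96 h, each with an SE of 0.42. Their adjusted p-values were 0.393, 0.404 and 0.551.

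The region next to it, 10.2 kb before Gc, showed no separation by rank at any time point, while its scaled summits of 8.401 and 8.30 at 96 h lay below those of 9.94 and 21.2 at 0 h. A further 2 weak regions of the Gc window also separated 0 h from all PHx libraries. The one in the last part of the gene (chr5:89418158-89418674, an intron) ranked 84364 and 82615 at 0 h and no better than 97405 in the 5 PHx libraries that listed it. The one 19.7 kb before Gc (chr5:89477524-89477710) ranked 88117 and 58762 at 0 h and was listed after PHx only in 72 h replicate 2, at rank 139696. The intergenic region past the 3′ end of Gc (chr5:89405157-89405570) was listed in all 8 libraries, and ranked between 40827 and 103372. By rank it separated from 0 h at no time point, but its scaled summits of 11.2 and 10.3 at 72 h lay above those of 8.75 and 6.58 at 0 h.

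Within Gc, 2 regions in introns had higher scaled summits at 48 h. The region 8.4 kb past the start (chr5:89448859-89449750) had scaled summits of 22.3 and 15.3 at 0 h, then 27.6 and 30.3 at 48 h, then 25.3 and 28.9 at 72 h, and finally 13.1 and 24.9 at 96 h. The region 6.7 kb past the start (chr5:89450921-89451433) had scaled summits of 17.9 and 16.8 at 0 h, then 27.0 and 26.1 at 48 h, then 14.4 and 20.3 at 72 h, and finally 12.1 and 16.6 at 96 h. Both libraries at 48 h lay above both at 0 h in each region, which 5.79% of regions did on this scale.

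After quantile normalisation of the summit tags, the limma difference at 48 h was 1.197 (SE 0.33, adjusted p = 0.152) for the first of these introns. It was 1.156 (SE 0.34, adjusted p = 0.171) for the second. Both are larger than the rise in the scaled summits printed above, since the median region differed by -0.52 at 48 h before this normalisation. On fold enrichment, which is taken against the surrounding signal, the limma differences were 0.34 (adjusted p = 0.746) and 0.26 (adjusted p = 0.739). The intron region 9.6 kb past the start had overlapping scaled summits at 48 h, 22.0 and 39.8 against 29.4 and 30.7 at 0 h.

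The density over the Gc body was higher at 48 h. It is recovered from the same lists and can share tags with these introns, so it is not separate evidence. The highest 10 kb density of the Gc body was 6.66 and 6.86 times the genome mean at 0 h, then 8.95 and 9.78 at 48 h, then 6.15 and 7.55 at 72 h, and finally 5.07 and 5.40 at 96 h. Both 48 h libraries lay above both 0 h libraries, as in 8.26% of gene bodies, and both 96 h libraries below, as in 36.7%. The mean of 7.05 ranked 515th of 21911 genes. The scaled summit of the Gc promoter was lower at 48 h, by contrast, but after quantile normalisation of the tags its limma difference was -0.07 (SE 0.28, adjusted p = 0.943). The difference between promoter and body was not tested.

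Over all 67 regions of the cluster listed in at least 2 libraries, the counts were read against the genome. At 48 h, 12 regions (17.9%) ranked lower and 8 (11.9%) higher than in both 0 h libraries, against 16.6% and 12.4% of all regions. At 72 h, 18 (26.9%) ranked lower and 10 (14.9%) higher, against 14.7% and 17.7%. At 96 h, 10 (14.9%) ranked lower and 4 (5.97%) higher, against 13.6% and 12.6%. The shares at 48 h were near the background, and at 72 h the share ranking lower exceeded it.

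Neighbouring regions share a chromosome segment, and they were not treated as independent. Of the 18 regions ranking lower at 72 h, 10 lay around Alb, Afp and Afm and 8 around Gc, and 3 were at member promoters. Ranks depend on the length of a list, and the counts were therefore repeated on 2 other scales.

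By percentile within the list, 9 cluster regions were lower and 10 higher at 48 h (12.9% and 14.7% of all regions), then 8 and 14 at 72 h (6.85% and 28%), then 6 and 6 at 96 h (8.17% and 17.8%). Across all 6 PHx libraries 3 were lower and 0 higher by percentile (2.14% and 4.04%). By scaled summit, 21 were lower and 6 higher at 48 h (31% and 5.79%), then 19 and 9 at 72 h (20.6% and 16%), then 16 and 2 at 96 h (16.3% and 10.8%). Across all 6 PHx libraries 11 were lower and 0 higher by scaled summit (10.2% and 1.28%). The share lower at 72 h thus lay above the background on each scale (26.9%, 11.9% and 28.4% of cluster regions), and the share higher at 96 h lay below it.

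By rank, all 6 PHx libraries lay below both 0 h libraries in 5 regions (7.46%, against 4.8%) and above them in 0 (against 2.35%). By rank these 5 are the Alb promoter, the region 13.1 kb before Alb and the 3 regions of Gc described above. The Alb promoter and the region 9.3 kb before Gc did not separate in this way by percentile.

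**Figure D5:**
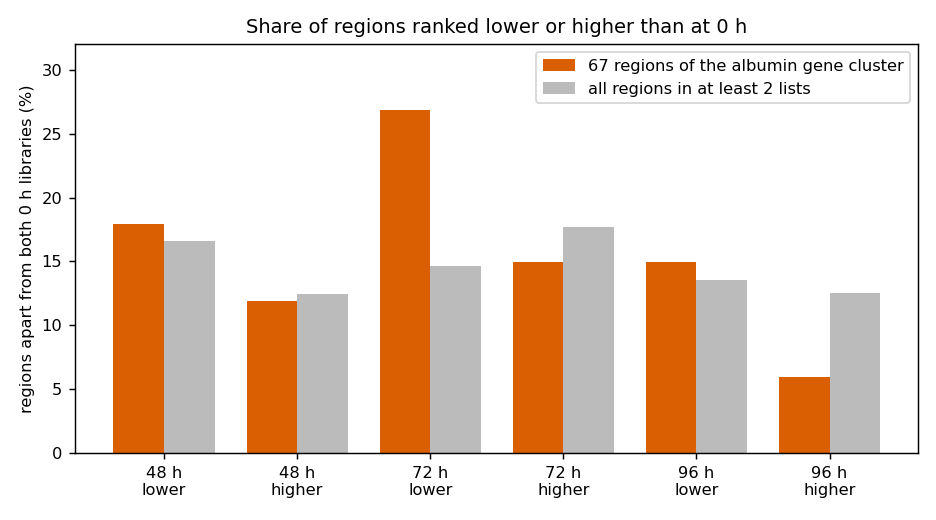
Percent of the 67 cluster regions, and of all 149843 regions listed in at least 2 libraries, that ranked lower or higher than both 0 h libraries in both libraries at 48, 72 and 96 h. The cluster bar stood at 26.9% for lower at 72 h against 14.7% for all regions, and at 5.97% for higher at 96 h against 12.6%.

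No region of the cluster passed the test across the genome. In limma on log2 fold enrichment, 0 of 57473 regions (0%) were called in any of the 3 contrasts at an adjusted p under 0.05, and 5828, 3591 and 3250 regions had an unadjusted p under 0.05 at 48, 72 and 96 h. At 48 h these were 5.21% lower and 4.93% higher, at 72 h 2.52% and 3.73%, and at 96 h 2.6% and 3.06%. Of the 26 cluster regions tested, 0 had an unadjusted p under 0.05 in any contrast. Their median difference was -0.11, -0.10 and 0.03 on the log2 scale, and 18, 18 and 11 of the 26 were negative. These medians depended on the scale and on 1 library. Centred on the median of each library in place of quantile normalisation, the median at 48 h was 0.11 with 11 negative. Without 96 h replicate 2 the median at 96 h was -0.09 with 18 negative, and without 96 h replicate 1 it was 0.19 with 9 negative. On the 10 kb density, the median at 96 h was -0.42 with 24 negative, beside -0.03 over all regions. On this density 7 of the 26 had an unadjusted p under 0.05 in limma, all lower. The 10.2% of all regions under it count both directions together, so the 2 are not alike. Regions less than 10 kb apart share tags in this density, so these regions are not separate observations.

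In the fit to quantile-normalised scaled summit tags, limma called 17, 2 and 1 regions in the genome (0.0296%, 0.00348% and 0.00174%) and 0 in the cluster. At an unadjusted p under 0.05, 2 cluster regions were lower and 5 higher at 48 h, against 5.77% and 6.16% of all regions. At 72 h, 1 was lower and 2 were higher (4.36% and 5.74% of all regions), and at 96 h, 3 were lower and 0 higher (3.42% and 4.11%). The median region in the genome had scaled summits lower by 0.52 on the log2 scale at 48 h (median difference -0.52), -0.23 at 72 h and -0.18 at 96 h, before quantile normalisation, so differences in scaled tags are to be read relative to these.

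Most promoters of other plasma protein genes ranked lower at each time after PHx. Of 21 such genes (4 of which, Ttr, Apoa1, Serpina1a and Fgb, are also in the hepatocyte marker list), 20 had a listed promoter and Tf, the transferrin gene, had none. At 48 h 16 ranked below both 0 h libraries and 0 above, at 72 h 13 and 0, and at 96 h 12 and 0. Of 15496 protein-coding promoters, 26.4%, 28.8% and 18.1% ranked lower at these times and 16.3%, 16.5% and 14.2% higher. Of the 4 members, 1, 3 and 2 ranked lower and 0 higher, and by percentile 1 was lower at each time. By percentile, 12, 9 and 6 of the plasma protein promoters were lower and 0, 0 and 1 higher, against 20.7%, 15.4% and 11.4% of all promoters lower and 19.4%, 27% and 21.6% higher.

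Hp, which encodes the haemoglobin-binding protein haptoglobin, ranked 18310 and 20742 at 0 h and between 32762 and 51554 after PHx. Hpx, encoding the haem carrier hemopexin, ranked 7889 and 3883 at 0 h and between 9230 and 26852 after PHx. Fga, the fibrinogen alpha chain, ranked 5048 and 8474 at 0 h and between 8515 and 29927 after PHx. In each of these 3 genes all 6 PHx libraries lay below both 0 h libraries by rank, but by percentile Fga stood at 94.5 in 72 h replicate 2 against 91.9 in 0 h replicate 2. These 3 were chosen by hand and do not stand for the list. Apob, for one, separated from 0 h at no time point by rank.

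Hepatocyte markers moved with this list. Of the 8 marker promoters 7, 7 and 5 ranked lower at 48, 72 and 96 h, and 5, 3 and 3 were lower by percentile, beside the shares of all promoters given above, and the sum of their percentiles was 555 to 577 at 0 h, 293 to 470 at 48 h, 468 to 482 at 72 h and 491 to 509 at 96 h. Of the 6 stellate cell markers 3 (Reln, Des and Col1a1) ranked higher at 48 h (16.3% of all promoters did) and 2 were higher by percentile (19.4%), while their summed percentiles were 233 to 272 at 0 h, then 282 to 329 at 48 h, then 252 to 329 at 72 h, and finally 264 to 266 at 96 h. Summed percentiles of the endothelial markers were 62.5 to 74.9 at 0 h, then 91.0 to 171 at 48 h, then 91.2 to 127 at 72 h, and finally 83.0 to 185 at 96 h, so that every PHx library lay above both at 0 h. By rank, however, 0 of these markers were higher at any time. Clec4g, listed only in 48 h replicate 2 and 96 h replicate 1, gave 91.4 and 91.5 of the 2 largest sums, 171 and 185. Those of the Kupffer cell markers were 2.48 to 16.6 at 0 h, then 0 at 48 h, then 13.4 to 32.7 at 72 h, and finally 0 to 26.9 at 96 h. Those of the cholangiocyte markers were 202.5 to 222 at 0 h, then 164 to 221 at 48 h, then 199 to 281 at 72 h, and finally 217 to 280 at 96 h. The part of these cell types in the results was not tested.

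Promoters of 19 genes for factors that bind or regulate the cluster showed a mixture. At 48 h 4 ranked lower and 2 higher (21.1% and 10.5%, against the 26.4% and 16.3% of all promoters), at 72 h 6 and 1 (31.6% and 5.26%, against 28.8% and 16.5%), and at 96 h 4 and 2 (21.1% and 10.5%, against 18.1% and 14.2%). By percentile 2, 2 and 4 were lower (10.5%, 10.5% and 21.1%, against 20.7%, 15.4% and 11.4% of all promoters). By the same scale 4, 5 and 4 were higher (21.1%, 26.3% and 21.1%, against 19.4%, 27% and 21.6%). Hnf4a, a master factor of hepatocytes, ranked 2492 and 1918 at 0 h and 5443 and 3415 at 48 h. Zhx2, which represses Afp in adult liver, ranked 28061 and 30004 at 0 h, then 21697 and 17374 at 48 h, and 22589 and 14151 at 96 h. By rank it was thus higher at 48 and 96 h, and at 72 h it was not separated. Zbtb20, another repressor of Afp, separated from 0 h at no time point by rank. By percentile Zbtb20 was higher at 48 h, at 88.7 and 93.7 against 87.8 and 88.5.

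The genes next to the cluster did not share one direction. Of 4 neighbours, Ankrd17 and Rassf6 ranked lower at all 3 time points and Npffr2 ranked higher at all 3. Of all promoters, 26.4%, 28.8% and 18.1% ranked lower at 48, 72 and 96 h and 16.3%, 16.5% and 14.2% higher. By percentile 1 of the 4 was lower and 1 higher at each time, against 20.7%, 15.4% and 11.4% of all promoters lower and 19.4%, 27% and 21.6% higher. With 4 genes these counts are a description only. The neighbour 5830473C10Rik ranked 12736 and 15026 at 0 h and 10256 and 9146 at 48 h, and was separated from 0 h at no other time by rank. Its scaled summits went the other way, at 38.6 and 44.6 at 0 h against 23.1 to 34.5 in the 6 PHx libraries, a pattern shared by 10.2% of regions.

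The motifs were also counted in 200 bp around the summit of each cluster region. In that window 0 of 67 regions held GTTAATNAT, against 1.35% of all 149843 regions, and the 4 member promoter regions are among the 67, since their promoter matches do not lie wholly inside the window. A region within Gc that was listed in 1 library only, and so is not among the 67, held it (chr5:89434659-89434813). A FOXA match was found in 12 (17.9%, against 13.2%), an NFI match in 12 (17.9%, against 14.5%), and a C/EBP match in 8 (11.9%, against 12.1%). AP-1 was matched in 4 (5.97%, against 8.12%), CTCF in 3 (4.48%, against 6.41%), and HNF4 (CAAAGTCCA) in 1 (1.49%, against 1.18%). With 67 regions, 1 region is 1.49%, and these shares are given as a description.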

How the data were processed

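Bulk ATAC-Seq lists of 8 mouse hepatocyte libraries were used, 2 from undamaged liver and 2 from each of 48, 72 and 96 h past PHx. The authors trimmed reads, mapped them to mm10 with Bowtie2, removed duplicates and called peaks with MACS2, per the study's methods, and 1 list was deposited for each library. The deposited lists give each peak's fold enrichment (a ratio to local background), with its p and q as −log10 values, as the authors' peak caller wrote them, and the −log10 q column was used in 1 alternative only. They hold no read counts, so the count-based time course test of the study was not run.

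Lines sharing an interval were collapsed to the highest −log10 p and ranked, ties by position. Intervals of the 8 lists were merged into regions, each library taking the strongest interval. A region was lower or higher at a time point when both libraries ranked strictly beyond both 0 h libraries, with unlisted regions last. Limma 3.58.1 (R 4.3.3; group means, moderated with a trend, Benjamini-Hochberg over all regions within a contrast) was run on quantile-normalised log2 fold enrichment. Python 3.11.15 was used for the rest, and genes came from GENCODE M21 on GRCm38.p6. The scripts were tested on simulated data.

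After the data were seen, the tags at each summit and the local background were recovered from fold and p together, which gave whole tags within 0.05 for 100% of intervals in each list. This assumes that fold is (tags + 1) over (background + 1) and that p is a Poisson tail, neither of which is stated in the sources used here. Background above the genome-wide value fell on whole multiples of 0.015 tags, as a 10 kb window and a tag width of 150 bp give. Depth differences remain in ranks, and tag precision covers counting error only.

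The members and gene lists were chosen with earlier results of these data known. Named regions were those at member promoters, the 6 distal regions per window with the highest mean percentile, and those called by limma or separating 0 h from all 6 PHx libraries. The weaker regions near Afp, the Gc intron 6.7 kb past the start, the Alb body and the Gc intron in the closing section were named after their values were seen. Promoters of plasma protein, regulator, neighbour and cell type marker genes were counted from lists, with examples chosen by hand. Likeness was measured as Pearson's r. Values of some single genes of these lists are not reported here.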

Additional observations from a re-analysis of the deposited data

Results flagged for a closer look

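The region 10.7 kb before Alb was picked out because its libraries moved in opposite directions at different time points. It ranked 30238 and 29245 at 0 h, then 33528 and 32954 at 48 h, then 34064 and 43751 at 72 h, and finally 19956 and 27400 at 96 h, so that both libraries lay below 0 h at 48 and 72 h and above it at 96 h. This holds by rank only, since by percentile the values at 48 h (71.6 and 76.4) and 72 h (75.7 and 71.7) overlapped those at 0 h (76.1 and 72.2), and by scaled summit those at 96 h overlapped 0 h. A region in an intron of Gc (chr5:89434961-89435730), 22.4 kb past the start, was picked out for the same reason. It ranked 108934 and 81288 at 0 h, then 63569 and 73163 at 48 h, and 114222 in 72 h replicate 1, and was unlisted in 72 h replicate 2, while at 96 h it ranked 81227 in replicate 1 and was unlisted in replicate 2. By percentile this region was higher at 48 h but not lower at 72 h, and by scaled summit its values at 48 h overlapped those at 0 h. In neither region was the difference between time points tested.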

How the results depend on the processing

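Counts of regions ranking lower or higher depended on the ranking and on the regions counted, and the lists limit this: the two-sided exact test of 2 against 6 libraries cannot go below 0.0714, and regions near the end of a list are missed in shallow libraries. By percentile, 8 regions ranked lower at 72 h, 6 at 96 h and 3 in all 6 PHx libraries (6.85%, 8.17% and 2.14% of all regions). Ranked by fold enrichment, 5 were higher at 48 h and 2 at 96 h (11.9% and 11.5% of all regions). Among the 50000 strongest intervals, with 21 cluster regions, lower and higher counts were 5 and 3 at 48 h (20.7% and 17.5% of all regions). They were 7 and 2 at 72 h (19.2% and 17.8%) and 4 and 1 at 96 h (16.6% and 14.2%), with 1 lower in all PHx libraries (5.94%). Of the windows, 4.13% was then covered rather than 9.10%. With a flank of 10 kb 3 of 61 regions were lower in all PHx libraries (4.8% of all regions), and with 50 kb 16 of 88 were lower at 96 h (13.6%). By scaled summit tags, 21 were lower at 48 h (31% of all regions), 16 lower and 2 higher at 96 h (16.3% and 10.8%), and 11 lower in all PHx libraries (10.2%). Over the 26 cluster regions in all 8 lists, 6 and 4 were lower and higher at 48 h (24.2% and 19.7% of all such regions). They were 10 and 2 at 72 h (22.8% and 19.5%) and 5 and 2 at 96 h (19.6% and 16.2%), with 2 lower in all PHx libraries (6.06%). Fewer regions were counted there. The last 2 alternatives, and the limma fits to summit tags and 10 kb density, were chosen after seeing the data. With promoters taken within 500 bp the Afp difference was 0 and within 2 kb it was -6.67, the reverse of 10.5, and 12 regions were then promoters.

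Leaving out 1 library, which loosens the separation by construction, gave 18 to 24 regions lower and 11 to 21 higher at 48 h, then 23 to 28 and 12 to 21 at 72 h, then 17 to 22 and 6 to 20 at 96 h, and 5 to 13 and 0 to 1 for all PHx libraries. The shares of all regions under the same settings were 25.7% to 33.0% lower and 18.2% to 31.4% higher at 48 h, then 25.02% to 30.9% and 26.1% to 36.9% at 72 h, then 23.9% to 29.8% and 19.5% to 35.2% at 96 h, and 5.97% to 16.5% and 3.08% to 8.54% for all PHx libraries. The promoter differences then ranged from -62.5 to -40.2 for Alb, 6.04 to 12.6 for Afp, -11.7 to -0.92 for Afm and -6.98 to -2.77 for Gc. Limma then called 0 to 7, 0 to 6 and 0 to 1 regions in the genome at 48, 72 and 96 h, and 0 in the cluster. It called 15 at 48 h and 1 at 72 h on log2 of −log10 p, 17, 2 and 1 on summit tags, 23, 52 and 18 on the 10 kb density, and 0 cluster regions in each. With the replicate number as a block it called 3 regions at 48 h, none of them in the cluster; same-numbered libraries deviated together with r of -0.057 to 0.126, so the numbers were not taken as pairs. The cause of these shifts was not tested.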

Other observations

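The genes whose open chromatin varied most like each member over the 8 libraries were named by Pearson's r of log2 summed fold enrichment in the gene body with 20 kb on each side, among 18000 genes with an interval in all lists. For Alb they were Cd3eap (r = 0.945), Trex2 (0.943) and Grwd1 (0.943), for Afp Slc9a3 (0.973), Gpr157 (0.964) and Kif4 (0.957), for Afm Fbxl18 (0.977), Cc2d2b (0.954) and Olfr49 (0.942), and for Gc Atad3a (0.970), Efna3 (0.968) and Gusb (0.957). Over 0.9 lay 20, 13, 17 and 50 genes for Alb, Afp, Afm and Gc. These values share the libraries' depth and list length, and with 8 libraries and 18000 genes high values of r arise without any relation, so they are a description only.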
